A study of Mus musculus with 4 samples.

Results

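The regions described here are stretches of the mouse genome in which the anti-NR2F1 signal had much the same extent in all 4 libraries of a single-cell CUT&Tag experiment. They were chosen by the extent of the called peaks. All called peaks were merged across libraries where they shared 1 bp or more, and a merged region on chromosomes 1 to 19 was kept where the peaks of each library on its own covered at least 50% of its length and at least 2 libraries held 10 or more cut sites. This kept 8709 of 263639 merged regions (3.30%), called shared regions below. All of the regions that passed the limit on coverage also passed the limit on cut sites.

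NR2F1 (COUP-TFI) is an orphan nuclear receptor that binds DNA as a dimer, at repeats of the half-site AGGTCA with varied spacing, and mostly acts as a repressor with corepressors such as NCOR and the CTIP proteins. In the embryonic hindbrain and forebrain it takes part in cell fate and in neuronal migration. In CUT&Tag an antibody brings the transposase Tn5 to the protein, so that nearby DNA is cut and tagged, and each cut site counts as signal. Open CpG-rich promoters can be cut by Tn5 without the antibody, and without an antibody-free library the 2 kinds of cut cannot be told apart here.

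The Fam5snv/snv embryos were homozygous for a knock-in single-nucleotide change in cRE2, a regulatory element near Gata2, and the WT embryos carried the unchanged element. All embryos were at E10.5 and carried the Isl1MN-GFP transgene, whose GFP marks motor neurons, and tissue of rhombomere 4 (r4) and next to it was dissected and sorted for GFP. The Fam5snv/snv replicates 1 and 2 were pools of 8 and 16 embryos, and the WT replicates 1 and 2 were pools of 26 and 26. GFP-negative cells were let through late in sorting, so the libraries also hold other cells of the dissected tissue, and the strain is not given in the sources used here.

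The Fam5snv/snv libraries held 8967987 and 10341894 cut sites in called peaks of 2274 and 2740 barcodes, against 3083946 and 3580517 cut sites in 2572 and 1377 barcodes for WT. WT replicate 1 stood apart, with 42168 called peaks against 137996 to 170993 in the other libraries. Pairs of libraries shared 3 to 12 barcodes. Of all cut sites, 31.0% and 27.5% fell in shared regions in the Fam5snv/snv libraries, and 47.6% and 31.8% in the WT libraries. WT replicate 1 had the lowest coverage of the 4 libraries in 92.8% of the shared regions, so its peaks set most of the choice.

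Short stretches of the RefSeq reference genome (GRCm38, the sequence of mm10, plus strand) show what kinds of DNA these regions hold. The first set is from the 3 regions of smallest p where both Fam5snv/snv libraries lay below both WT libraries, followed by 3 regions that were also below and were picked because they held a pair of half-sites one base apart (a DR1). Capitals mark the half-site, AGGTCA or its complement TGACCT.
Near Gata3, chr2:9338115-9338234: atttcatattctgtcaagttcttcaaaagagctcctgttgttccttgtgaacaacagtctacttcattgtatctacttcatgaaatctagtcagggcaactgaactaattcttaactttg
Ctnna3 intron, chr10:63689471-63689590: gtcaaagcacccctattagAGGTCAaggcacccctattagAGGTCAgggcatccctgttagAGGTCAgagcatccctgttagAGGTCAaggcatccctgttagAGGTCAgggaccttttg
Near 2510009E07Rik, chr16:21702013-21702132: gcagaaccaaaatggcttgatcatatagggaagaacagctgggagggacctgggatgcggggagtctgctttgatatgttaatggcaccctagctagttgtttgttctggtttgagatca
Near Katnal1, chr5:148933943-148934002: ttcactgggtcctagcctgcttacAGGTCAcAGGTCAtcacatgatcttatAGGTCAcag
Mindy3 intron, chr2:12398443-12398502: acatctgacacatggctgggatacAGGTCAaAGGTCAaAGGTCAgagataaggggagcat
Ttll11 intron, chr2:35906076-35906135: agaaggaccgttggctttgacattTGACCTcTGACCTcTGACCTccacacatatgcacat
The Ctnna3 stretch repeated a unit with 1 half-site each, 5 half-sites in 120 bases, while the Gata3 and 2510009E07Rik stretches held none. The Gata3 stretch is named only after its nearest protein-coding gene, whose TSS is 540 kb away. The DR1 stretches, picked for the motif, each held 3.

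The second set is from regions where both Fam5snv/snv libraries lay above both WT libraries, with the same marking.
Upstream of Ret, chr6:118308326-118308445: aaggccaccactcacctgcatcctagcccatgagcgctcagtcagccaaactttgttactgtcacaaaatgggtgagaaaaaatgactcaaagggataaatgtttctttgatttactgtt
Eml1 intron, chr12:108403949-108404068: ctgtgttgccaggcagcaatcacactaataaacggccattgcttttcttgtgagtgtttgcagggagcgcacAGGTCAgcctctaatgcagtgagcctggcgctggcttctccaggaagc
Here the Eml1 stretch held 1 half-site and the Ret stretch none.

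The third set is from the regions with the densest signal, and capitals also mark a GC box (GGGCGG or its complement).
Ribosomal RNA locus, chr17:39845855-39845974: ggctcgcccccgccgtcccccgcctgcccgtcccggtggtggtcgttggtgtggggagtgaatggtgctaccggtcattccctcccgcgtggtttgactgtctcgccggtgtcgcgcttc
Ppp2r3d promoter, chr9:124424185-124424304: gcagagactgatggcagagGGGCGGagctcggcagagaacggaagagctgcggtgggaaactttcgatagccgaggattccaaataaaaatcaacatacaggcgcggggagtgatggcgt
The ribosomal RNA stretch held neither motif, and the Ppp2r3d stretch held 1 GC box.

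Most shared regions were promoters. Of the 8709, 4877 (56.0%) overlapped 1 kb on either side of a protein-coding transcription start site (TSS), against 28.7% of the 27061 other tested regions, those with a peak in every library and the same minimum of cut sites. A further 25.5% lay between genes, 17.1% in introns and 1.45% in exons, against 36.9%, 31.5% and 2.89% of the other tested regions. The shared promoters belonged to 5533 genes, and 15.1% of them served 2 or more genes, against 8.83% of the other tested promoters. The median width was nearly the same, 1906 bp in shared and 1926 bp in other tested regions, while the stretch covered by all 4 libraries, which the rule acts on, was 1155 bp against 442 bp.

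Their base composition differed from that of other tested regions, within promoters as well as in the whole set. In 501 bp around the middle of the stretch common to the libraries, median GC content was 57.9% in shared and 52.5% in other tested regions, and the observed over expected CpG ratio was 0.602 against 0.284. The GC box, which Sp1-family factors bind, was found on either strand in 52.4% of shared and 31.7% of other tested regions. Within promoters the GC content was 65.1% against 62.9%, the CpG ratio 0.809 against 0.738, and a GC box was found in 78.2% against 70.1%. Outside promoters the values lay closer together, with a GC content of 50.1% against 50.3%, a CpG ratio of 0.251 against 0.227 and a GC box in 19.6% against 16.2%. The CCAAT box was found in 44.4% against 45.1%. The half-site AGGTCA was found in 30% of shared and 38.5% of other tested regions, and the DR1 was found in 0.459% (40 regions) against 1.03%. Outside promoters the half-site shares lay close together, at 43.8% and 45%. The DR1 was found in 0.966% against 1.35% of regions outside promoters and in 0.0615% against 0.232% of promoters. These values describe the chosen set, and no test was made of them.

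Signal and replicate spread are given here as a description, because the rule favours dense signal and even extent: cut sites exist only inside called peaks, and the rule asks for peaks over most of the region in each library. Values in CPM are cut sites as a share of the library's total in tested regions, times 1e6, with the total scaled by TMM, the edgeR method that takes most regions as unchanged. The median shared region had 31.2 and 29.6 CPM in the Fam5snv/snv libraries and 39.9 and 32.7 CPM in the WT libraries, while other tested regions had 14.5 and 15.2 CPM against 10.5 and 13.7 CPM. The median distance between replicates was 0.19 on the log2 scale for Fam5snv/snv and 0.39 for WT, against 0.28 and 0.57 in other tested regions. Fitted alone, the shared regions had a biological coefficient of variation of 0.138, and the other tested regions, a fit added after the data were seen, 0.344.

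The comparison of Fam5snv/snv with WT asked at which of these regions the NR2F1 signal differed with the knock-in. With edgeR (quasi-likelihood test, all 35770 tested regions, Benjamini-Hochberg adjustment), no shared region passed an adjusted p under 0.05 in either direction, and the background over all tested regions was 0% in each. At an unadjusted p under 0.05, 17 shared regions were higher in Fam5snv/snv (0.195%, background 5.29%) and 858 were lower (9.85%, background 3.37%). The Fam5snv/snv libraries lay above both WT libraries in 280 regions (3.22%, background 23.2%) and below both in 4215 (48.4%, background 21.4%). DESeq2 called 1 shared region higher (background 1.02%) and 147 lower (1.69%, background 0.542%) at an adjusted p under 0.05. Peak extent and cut sites come from the same reads, so these values describe the chosen regions, and the p-values measure only the spread between 2 pools per genotype. An exact permutation test of 2 against 2 libraries cannot give a p below 0.333.

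The direction of the whole set depended on the scaling. The median shared region had a log2 fold change of −0.31, against 0.18 in other tested regions and 0.02 over all tested regions. Scaled to the shared regions themselves, the median was −0.01, and 255 regions were higher (2.93%, background 10.9%) and 109 lower (1.25%, background 0.383%) at an unadjusted p under 0.05. Scaled by the number of barcodes, 1333 were higher (15.3%, background 24.3%) and 0 lower (background 0%), with a median of 0.69 against 0.97 over all tested regions. WT replicate 1 had the highest CPM of the 4 libraries in 71.4% of the shared regions. Without it the median was −0.14, and edgeR called 150 regions higher (1.72%, background 4.17%) and 142 lower (1.63%, background 1.17%), both with an adjusted p under 0.05. Without WT replicate 2 the median was −0.45, with 1 called higher (background 11.4%) and 1740 lower (background 6.21%). A single direction for these regions cannot be read from the data, and log2 fold changes below are best set against the median of −0.31.

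**Figure D1:**
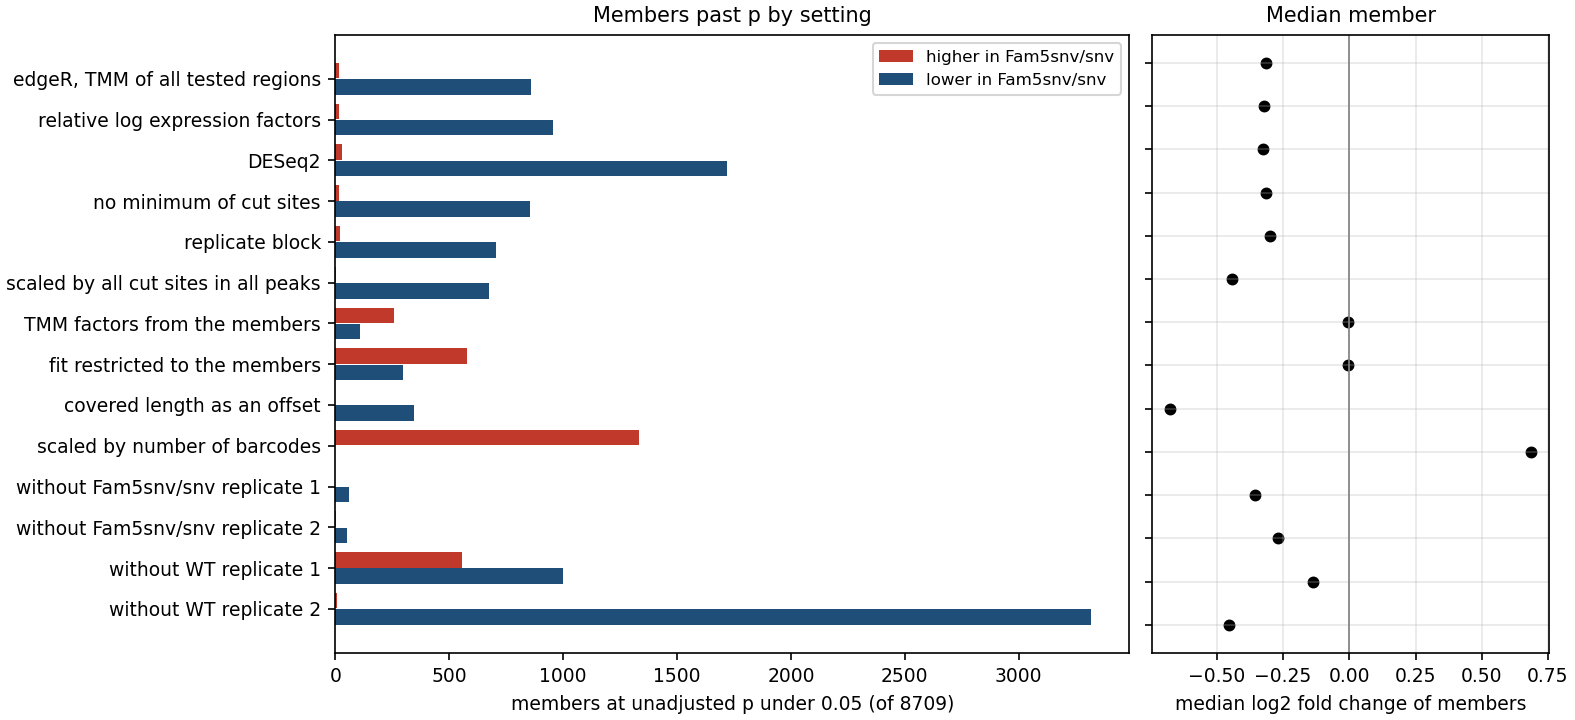
Number of the 8709 shared regions at an unadjusted p under 0.05 (left, bars from 0, red for higher and blue for lower in Fam5snv/snv) and the median log2 fold change of Fam5snv/snv over WT (right, points) under each setting, with shared regions named members on the axes. The counts read 17 higher and 858 lower with TMM factors of all tested regions, 255 and 109 with factors of the shared regions, and 1333 and 0 by barcodes.

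Promoters and distal regions differed in where they lay around that median. The 4877 promoters had a median log2 fold change of −0.36, with the middle 50% between −0.49 and −0.21, and the 3832 regions outside promoters had −0.22, between −0.45 and 0.04. At an unadjusted p under 0.05, 1 promoter was higher and 652 (13.4%) were lower, while outside promoters 16 were higher and 206 (5.38%) lower. Of the other tested promoters 2.50% were higher and 2.51% lower, and of the other tested regions outside promoters 8.71% and 0.793%. Scaled to the shared regions, 24 promoters were higher and 73 lower, while outside promoters 231 were higher (6.03%) and 36 lower (0.939%). Of the 147 regions DESeq2 called lower, 99 were promoters (67.3%), against 56.0% of all shared regions.

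Peak length moved with the difference. The peaks of the Fam5snv/snv libraries were longer, by a median of 0.36 on the log2 scale in shared regions and 1.00 in other tested regions. Across the 8709 regions the log2 fold change and this log2 length ratio had a Pearson r of 0.54 and a Spearman rho of 0.51, a description over regions of the same 4 libraries. In the third of shared regions with the smallest length ratio, the median log2 fold change was −0.45 for promoters and −0.48 outside promoters. In the third with the largest, it was −0.24 for promoters and −0.04 outside promoters. Regions with a lowest coverage of 50% to 60% had a median log2 fold change of −0.25 (4213 regions), and those at 90% or more had −0.51 (56 regions). The part of peak calling in the difference was not tested.

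**Figure D2:**
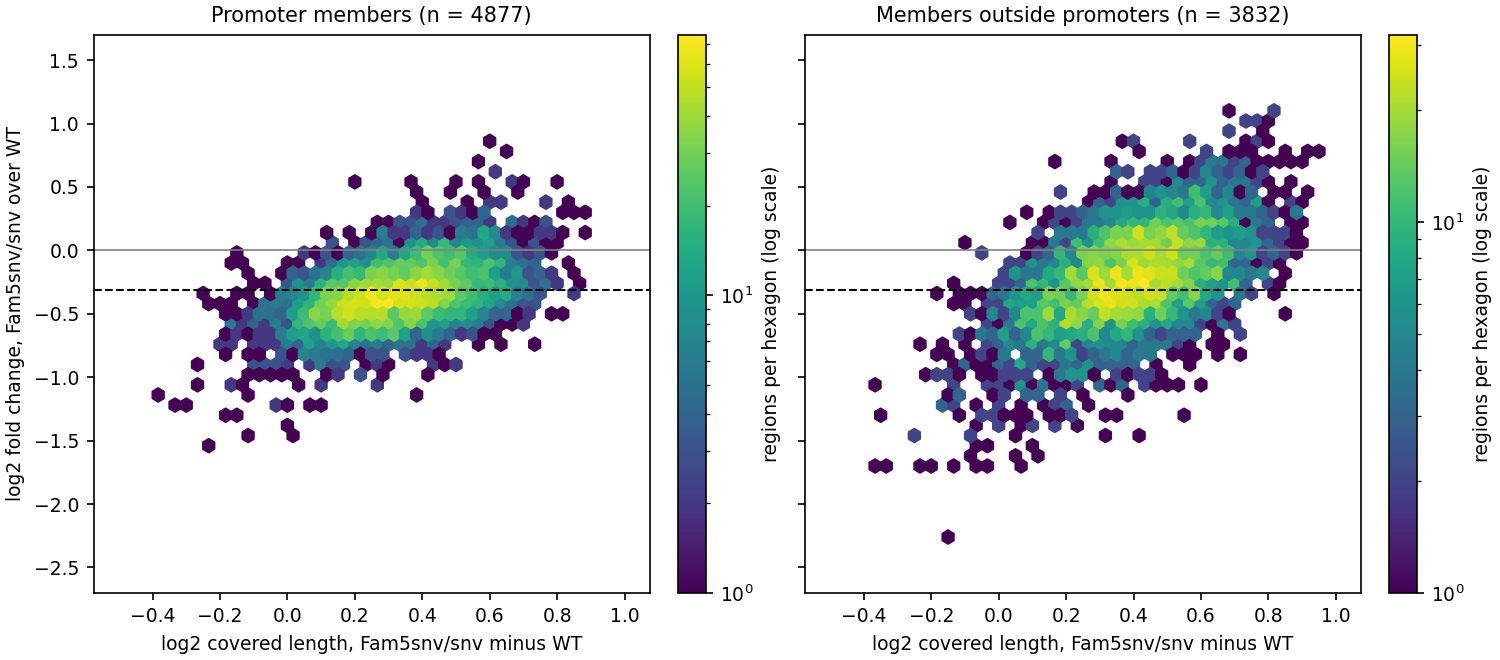
Log2 fold change of Fam5snv/snv over WT (vertical) against the log2 ratio of covered length, Fam5snv/snv minus WT (horizontal), for 4877 promoters (left) and 3832 shared regions outside promoters (right). Colour gives regions per hexagon on a log scale, the dashed line marks the median of −0.31, and both panels slope upward.

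The 10 regions with the smallest p among those above WT were mostly distal. Of them 6 lay between genes, 3 in introns and 1 at a promoter, and their log2 fold changes ran between 0.70 and 1.12. None passed the adjusted threshold with edgeR (adjusted p = 0.573 for each), and DESeq2 called the first.

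The region upstream of Ret, the receptor tyrosine kinase for ligands of the GDNF family, came first. It lies 111 kb from the Ret TSS, between genes, at chr6:118306763-118310406. It held 400 and 430 cut sites in the Fam5snv/snv libraries, against 96 and 63 in the WT libraries, or 54.7 and 54.4 CPM against 33.6 and 22.2 CPM. The groups did not overlap, and the log2 fold change was 0.97 ± 0.26 (SE, n = 2 pools per genotype; edgeR adjusted p = 0.573; DESeq2 adjusted p = 0.034). Its peaks covered 97.1% and 95.9% of the region in the Fam5snv/snv libraries, against 53.6% and 67.6% in the WT libraries. With covered length as an offset, the log2 fold change was 0.25, in a fit where the median shared region stood at −0.68.

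A region 75.1 kb upstream of Pex5l, which encodes an auxiliary subunit of HCN channels, was second, at chr3:33217282-33220755. It had 75.6 and 74.6 CPM in the Fam5snv/snv libraries and 53.3 and 39.0 CPM in the WT libraries, a log2 fold change of 0.70 ± 0.22 (SE, n = 2; DESeq2 adjusted p = 0.079). With covered length as an offset it was −0.02. The third, in an intron of the microtubule-associated gene Eml1 at chr12:108403279-108404574, had 33.5 and 39.3 CPM in Fam5snv/snv and 23.8 and 11.6 CPM in WT. Its log2 fold change was 1.04 ± 0.36 (SE, n = 2; DESeq2 adjusted p = 0.152).

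The other regions of this group lay between genes near Triqk, Bnc2 (a zinc finger gene), Arl4d (a small GTPase) and Hrh4 (a histamine receptor), in introns of Aoah, which breaks down bacterial lipopolysaccharide, and of Dip2a, next to S100b, a calcium-binding protein of glia, and at the promoter shared by Supv3l1, a mitochondrial RNA helicase, and 4930507D05Rik. The Arl4d region, 30.8 kb from its TSS, had 72.7 and 68.2 CPM in Fam5snv/snv and 50.8 and 22.9 CPM in WT. The Supv3l1 promoter had 24.7 and 26.2 CPM in Fam5snv/snv and 14.7 and 15.5 CPM in WT, a log2 fold change of 0.75 ± 0.29 (SE, n = 2; DESeq2 adjusted p = 0.248), the only promoter of the 10. In all 10 the Fam5snv/snv peaks were longer, by 0.36 to 0.81 on the log2 scale. With covered length as an offset their log2 fold changes lay between −0.02 and 0.51, against a median of −0.68 over shared regions in that fit.

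The 10 regions with the smallest p among those below WT had peaks of more even length. Their log2 fold changes ran between −2.29 and −0.87, and the log2 length ratio had a median of −0.01. With covered length as an offset the log2 fold changes ran between −2.19 and −0.82. In that fit the median was −0.68 over shared regions and −0.76 over all tested regions. Without the offset, and set against the median of −0.31, the 10 below WT ran between −1.98 and −0.56. The 10 above WT ran between 1.01 and 1.43. Of the 10 below WT, 5 lay in introns, 4 between genes and 1 at a promoter. All 10 passed with DESeq2 (adjusted p between 6.4e-04 and 0.0054) and none with edgeR (adjusted p = 0.573 for each). The half-site was found in 8 of these 10 and in 3 of the 10 above WT, and 9 of each 10 lay outside promoters, where 44.8% of all tested regions held it.

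The first lies between genes at chr2:9337393-9339449, with Gata3, a zinc finger factor and regulator of inner ear efferent neurons, as the nearest protein-coding gene, 540 kb away. It held 161 and 169 cut sites in the Fam5snv/snv libraries, against 132 and 150 in the far shallower WT libraries, or 22.01 and 21.37 CPM against 46.2 and 52.8 CPM. The groups did not overlap, and the log2 fold change was −1.19 ± 0.22 (SE, n = 2; DESeq2 adjusted p = 6.4e-04).

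The Ctnna3 region, in an intron of the gene for alpha-T-catenin at chr10:63688880-63690403, is the one with the tandem half-sites printed above. It had 24.1 and 28.1 CPM in the Fam5snv/snv libraries and 53.3 and 57.7 CPM in the WT libraries, with a log2 fold change of −1.09 ± 0.22 (SE, n = 2; DESeq2 adjusted p = 0.0014). The Katnal1 region, 4.81 kb upstream of this katanin subunit gene, had 22.6 and 21.4 CPM in Fam5snv/snv and 62.7 and 40.8 CPM in WT, a log2 fold change of −1.24 ± 0.27 (SE, n = 2; DESeq2 adjusted p = 0.0054). In both regions each Fam5snv/snv library lay below each WT library.

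The largest difference of the 10 was in an intron of Tenm2, a teneurin adhesion protein, at chr11:36725326-36726251. It held few cut sites, 36 and 31 in the Fam5snv/snv libraries and 81 and 43 in the WT libraries, or 4.92 and 3.92 CPM against 28.4 and 15.1 CPM. The log2 fold change was −2.29 ± 0.48 (SE, n = 2; DESeq2 adjusted p = 0.0029). The region upstream of Vwa5b1 at chr4:138646999-138649692 had 60.4 and 33.5 CPM in Fam5snv/snv and 179.7 and 109.4 CPM in WT, a log2 fold change of −1.62 ± 0.36 (SE, n = 2; DESeq2 adjusted p = 0.0018). Peaks covered 81.7% or more of the Vwa5b1 region in every library.

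The remaining regions below WT lay near 2510009E07Rik, in introns of Slc38a1, a glutamine transporter, and Pou2f2, a POU-domain factor, at the promoter of Commd3 and 207 kb upstream of Tbx3, a T-box factor. The Commd3 promoter had 34.7 and 34.6 CPM in Fam5snv/snv and 68.7 and 61.2 CPM in WT, a log2 fold change of −0.90 ± 0.20 (SE, n = 2; DESeq2 adjusted p = 0.0036). The Tbx3 region had 43.6 and 46.3 CPM in Fam5snv/snv and 79.9 and 84.4 CPM in WT, with a log2 fold change of −0.87. Replicates of a genotype lay close together in both.

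**Figure D3:**
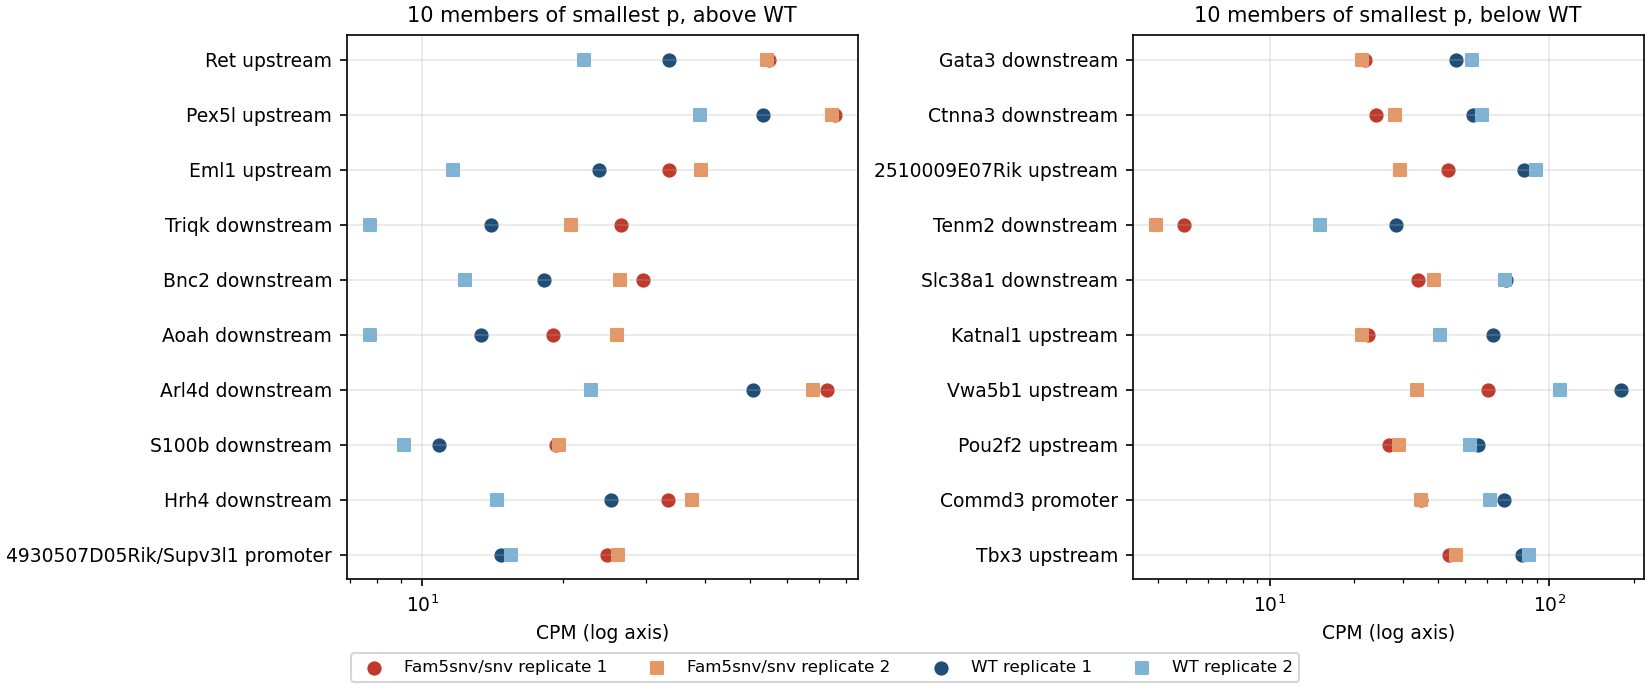
CPM (log axis) of the 10 shared regions of smallest p above WT (left) and below WT (right), 1 point per library, red and orange for Fam5snv/snv and blue for WT, regions in order of p from the top. In each row the Fam5snv/snv points lie on one side of the WT points, as the choice of these regions requires.

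Half-sites were found in regions of both directions. Outside promoters the half-site was found in 50.5% of the 206 regions lower at an unadjusted p under 0.05 and in 43.8% of all 3832. Within promoters it was found in 16.3% of the 652 lower regions and in 19.0% of all 4877. Scaled to the shared regions, it was found outside promoters in 61.1% of the 36 lower and 48.5% of the 231 higher regions. Within promoters it was then found in 15.1% of the 73 lower and 29.2% of the 24 higher regions. The DR1 was found in 7 of the 206 lower regions outside promoters (3.40%), against 0.966% of all 3832. Of the 652 lower promoters 0 held it, against 0.0615% of all 4877. The 40 shared regions with a DR1 had a median log2 fold change of −0.25, and 19 of them (47.5%) lay below both WT libraries, close to the 48.4% of all shared regions. Among these DR1 regions, the Mindy3 one had 14.9 and 15.7 CPM in Fam5snv/snv and 24.9 and 35.9 CPM in WT, and the Ttll11 one had 22.4 and 18.8 CPM in Fam5snv/snv and 36.4 and 39.0 CPM in WT. Both were picked after their values were seen, and both passed an unadjusted but not an adjusted p under 0.05.

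At the Gata2 locus, where the knock-in lies, the merged region that holds cRE1 and cRE2 was not a shared region. The peaks of WT replicate 1 covered 49.9% of it, just under the limit. It had 102 and 83.1 CPM in Fam5snv/snv and 204.6 and 123.5 CPM in WT. The log2 fold change was −0.83 ± 0.29 (SE, n = 2, edgeR adjusted p = 0.573, DESeq2 adjusted p = 0.095). Without WT replicate 1 it was −0.42. This region spans both elements, so its values cannot be assigned to either. The paper reported a lower peak at cRE2 and no change at cRE1. The region at chr6:88196125-88199852, which overlaps a TSS of Gata2, the zinc finger factor upstream of Gata3 in these neurons, was shared. It held 178 and 220 cut sites in the Fam5snv/snv libraries, against 117 and 106 in the WT libraries, or 24.3 and 27.8 CPM against 41.0 and 37.3 CPM. The libraries did not overlap, and the log2 fold change was −0.58 ± 0.23 (SE, n = 2; edgeR adjusted p = 0.573). Its lowest coverage was 50.3%, and scaled to the shared regions its log2 fold change was −0.28.

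NR2F1 signal at its own gene was shared. The Nr2f1 region, 8595 bp wide at chr13:78197403-78205997, had 160.4 and 161.0 CPM in Fam5snv/snv and 196.5 and 152.3 CPM in WT. The groups overlapped, with a log2 fold change of −0.12 ± 0.23 (SE, n = 2; edgeR adjusted p = 0.882), so no difference was seen beyond the spread of WT, and the 95% interval ran between −0.65 and 0.41. The promoters of Nr2f2, which encodes the related receptor COUP-TFII, of Gata3, of Isl1, the LIM-homeodomain factor of motor neurons, and of Hoxb1, which patterns r4, were tested but were not shared regions.

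Nor was the promoter of any of 8 motor neuron markers, 7 of which had a tested promoter. Of 3 neuronal, 3 progenitor and 3 neural crest and mesenchyme markers, Stmn2, Nes and Sox10 had a shared promoter, and of 6 endothelial and blood markers, of which 1 had a tested promoter, none. A shared promoter shows where the antibody signal lay in the pooled cells and not which cells were present, so the labelled cell type could not be checked from these regions alone.

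The 13 gene lists were drawn up with earlier results known, and in none did a promoter pass with edgeR after adjustment over all tested regions, nor lie above both WT libraries. Of 30 nuclear receptor genes, all tested, 15 had a shared promoter, in 16 regions, with a median log2 fold change of −0.43 against −0.36 for all shared promoters. At an unadjusted p under 0.05, 4 of the 16 were lower. Such counts, here and for each list below, stand beside 13.4% of all shared promoters and 3.37% of all tested regions, and no test was made between them. Nr2f6, an orphan receptor of the COUP-TF family, had 251.4 and 231.9 CPM in Fam5snv/snv and 423.9 and 340.1 CPM in WT, a log2 fold change of −0.66 (DESeq2 adjusted p = 0.047). Nr1h2, the oxysterol receptor LXR beta, had 49.1 and 48.4 CPM in Fam5snv/snv and 82.0 and 65.1 CPM in WT, with a DESeq2 adjusted p = 0.108.

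Among partners and corepressors of nuclear receptors, 8 of 18 genes had a shared promoter, with a median log2 fold change of −0.39, and 2 were lower at an unadjusted p under 0.05. The corepressor gene Rcor1 had 61.9 and 57.9 CPM in Fam5snv/snv and 101.6 and 90.4 CPM in WT (log2 fold change −0.68, DESeq2 adjusted p = 0.020). The coactivator gene Ncoa2 had 79.7 and 57.2 CPM in Fam5snv/snv and 105.8 and 117.8 CPM in WT (log2 fold change −0.71, DESeq2 adjusted p = 0.077). Hdac1 and Sin3a, of the deacetylase complexes, had log2 fold changes of −0.41 and −0.38 that did not pass.

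Developmental lists varied. Of 22 Hox genes and cofactors, 10 had one, with a median log2 fold change of −0.19. Of 25 motor neuron regulators, 4 had one, in 5 regions with a median of −0.09, and the lower ones were the Gata2 promoter and that of Onecut1, with 74.5 and 88.0 CPM in Fam5snv/snv and 127.2 and 108.7 CPM in WT. Of 24 progenitor and Notch genes, 12 had one and 0 passed an unadjusted p. Hes6, a bHLH factor of neurogenesis, had 130.4 and 121.3 CPM in Fam5snv/snv and 192.3 and 159.0 CPM in WT (DESeq2 adjusted p = 0.150). Of 25 neuronal genes, 9 had one, and the synaptic vesicle gene Syt1 was lower at an unadjusted p under 0.05, with 21.2 and 20.1 CPM in Fam5snv/snv and 33.6 and 39.7 CPM in WT. Of 19 endothelial and blood genes only Sox17 had a shared promoter, and of 18 neural crest and mesenchyme genes 3 did. Among these Snai2, a repressor of epithelial genes in migrating crest, held 48 and 47 cut sites in Fam5snv/snv and 45 and 40 in WT, or 6.56 and 5.94 CPM against 15.8 and 14.1 CPM. Its log2 fold change of −1.25 ± 0.44 (SE, n = 2; DESeq2 adjusted p = 0.132) was the lowest of all listed promoters.

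Lists of broadly expressed genes varied too. Splicing factors had a shared promoter for 18 of 24 genes (median log2 fold change −0.37, 3 lower at an unadjusted p), ribosomal proteins for 14 of 25 (−0.31, 0 lower), proteasome subunits for 14 of 24 (−0.23, 1 lower), the respiratory chain for 8 of 24 (−0.43, 2 lower) and the cell cycle for 7 of 24 (−0.52, 2 lower). Pcna, the sliding clamp of DNA replication, had 43.9 and 36.9 CPM in Fam5snv/snv and 84.8 and 63.7 CPM in WT, a log2 fold change of −0.88 (DESeq2 adjusted p = 0.022). Hnrnpl, a splicing regulator, had 143.3 and 141.6 CPM in Fam5snv/snv and 246.6 and 204.0 CPM in WT, a log2 fold change of −0.66 (DESeq2 adjusted p = 0.024). Psma4, a subunit of the proteasome core, shares its promoter with AY074887 and had 18.6 and 16.8 CPM in Fam5snv/snv and 37.8 and 26.7 CPM in WT (DESeq2 adjusted p = 0.129). All 7 cell cycle promoters lay below both WT libraries, as did 13 of 18 splicing, 10 of 14 ribosomal, 9 of 14 proteasome and 5 of 8 respiratory chain promoters. These counts stand beside 48.4% of all shared regions, distal ones included, and 21.4% of all tested regions.

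**Figure D4:**
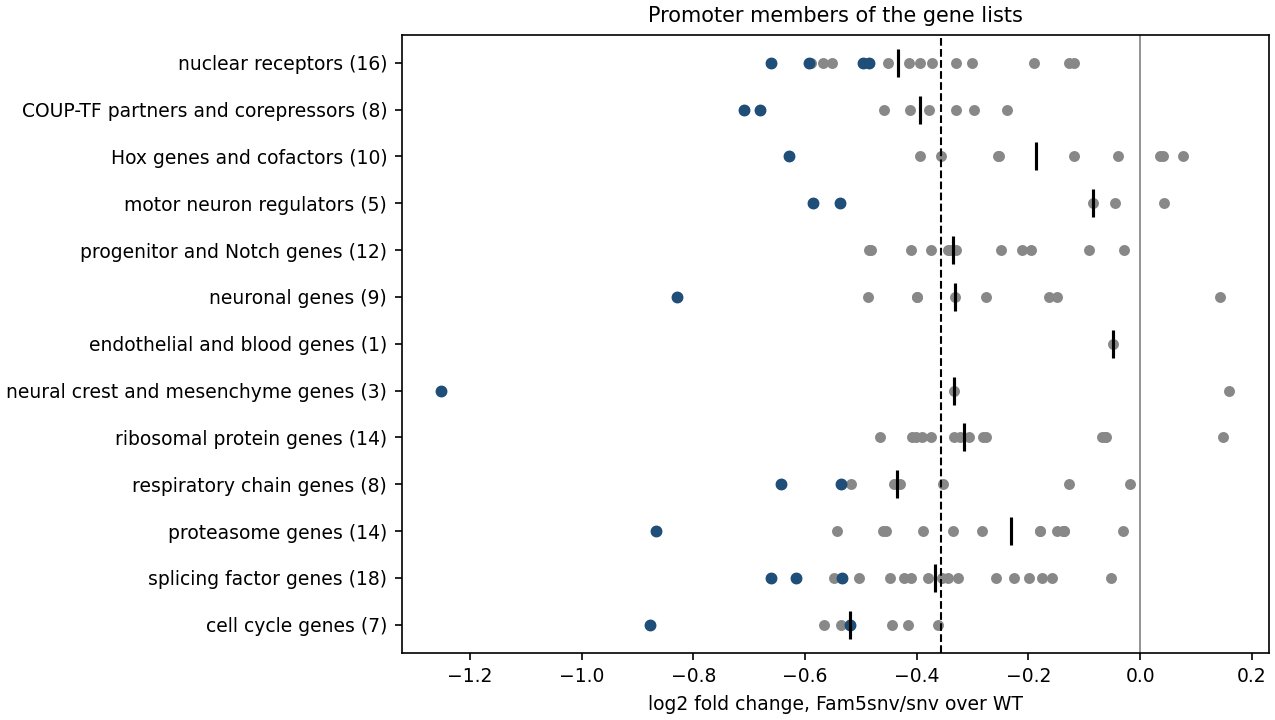
Log2 fold change of Fam5snv/snv over WT for the shared promoter regions of 13 gene lists, 1 point per region (blue at an unadjusted p under 0.05, grey otherwise), with the number of regions in brackets. Short bars mark list medians and the dashed line the median of all shared promoters, −0.36. List medians run between −0.52 and −0.05.

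The strongest signal per kb lay in the ribosomal RNA genes. The region at chr17:39842788-39849035, where the annotation places a ribosomal RNA gene, had 782 and 438 CPM per kb of called peak in the Fam5snv/snv libraries and 810 and 823 CPM per kb in the WT libraries, a mean of 713 ± 184 (SD, 4 libraries). The median shared region had 21.1 CPM per kb and 90% of them had at most 40.6. Fam5snv/snv replicate 2 was the low library, and the groups did not overlap by a narrow margin (log2 fold change −0.42 ± 0.43, SE, n = 2; edgeR adjusted p = 0.768). Near-identical copies elsewhere in the assembly (at least 95% over 100 bp) covered 24.8% of it. Copies that the assembly does not hold could not be found this way, so these values cannot be read as signal per gene copy.

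Of the 10 strongest regions 5 were promoters, and the 4 others beside the ribosomal RNA region were narrow, between 761 and 877 bp wide. A region of 853 bp between genes, 88.7 kb from Axin2, had 263.8 and 146.0 CPM per kb in Fam5snv/snv and 223.5 and 250.3 CPM per kb in WT. A region in a Cdk8 intron had 208.6 and 123.6 CPM per kb in Fam5snv/snv and 208.1 and 225.9 CPM per kb in WT. A region between genes on chromosome 3 near Gm8797 and one in an exon of Lars2, the mitochondrial leucyl-tRNA synthetase, had means of 143 and 126 CPM per kb, and near-identical copies covered 59.7% and 49.9% of them. At the same limit no copy was found for the Axin2 and Cdk8 regions. Copies of lower identity or off the assembled chromosomes were not searched, so neither region can be taken as single-copy. In each of these 4 regions Fam5snv/snv replicate 2 was the lowest library, and none passed an unadjusted p under 0.05.

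The strongest promoter was that of Ppp2r3d, a regulatory subunit gene of protein phosphatase PP2A, at chr9:124422302-124426750. It had 135.3 and 137.5 CPM per kb in Fam5snv/snv and 280.5 and 162.3 CPM per kb in WT, a log2 fold change of −0.54 ± 0.32 (SE, n = 2; edgeR adjusted p = 0.627). The promoter between Nudt6 and Spata5, an AAA-type ATPase gene, had a mean of 133 CPM per kb, that of Agpat1, an acyltransferase of phospholipid synthesis, and Rnf5, a ubiquitin ligase, 130, that of the GC box factor Sp1 120 and that of Usp22, a deubiquitinase, 110. Next in density, in a list of 10 promoters added after the data were seen, were Cnot9 with Usp37, Kat6b, a histone acetyltransferase gene, Nr1d2, the heme receptor Rev-erb beta, Akt1s1 with Tbc1d17, and Plekha6, with means between 99.2 and 107 CPM per kb. In all 10 of these promoters WT replicate 1 was the highest library, as it was per kb in 97.6% of the shared regions. No promoter of the 10 passed an unadjusted p under 0.05 (edgeR adjusted p between 0.581 and 0.767).

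**Figure D5:**
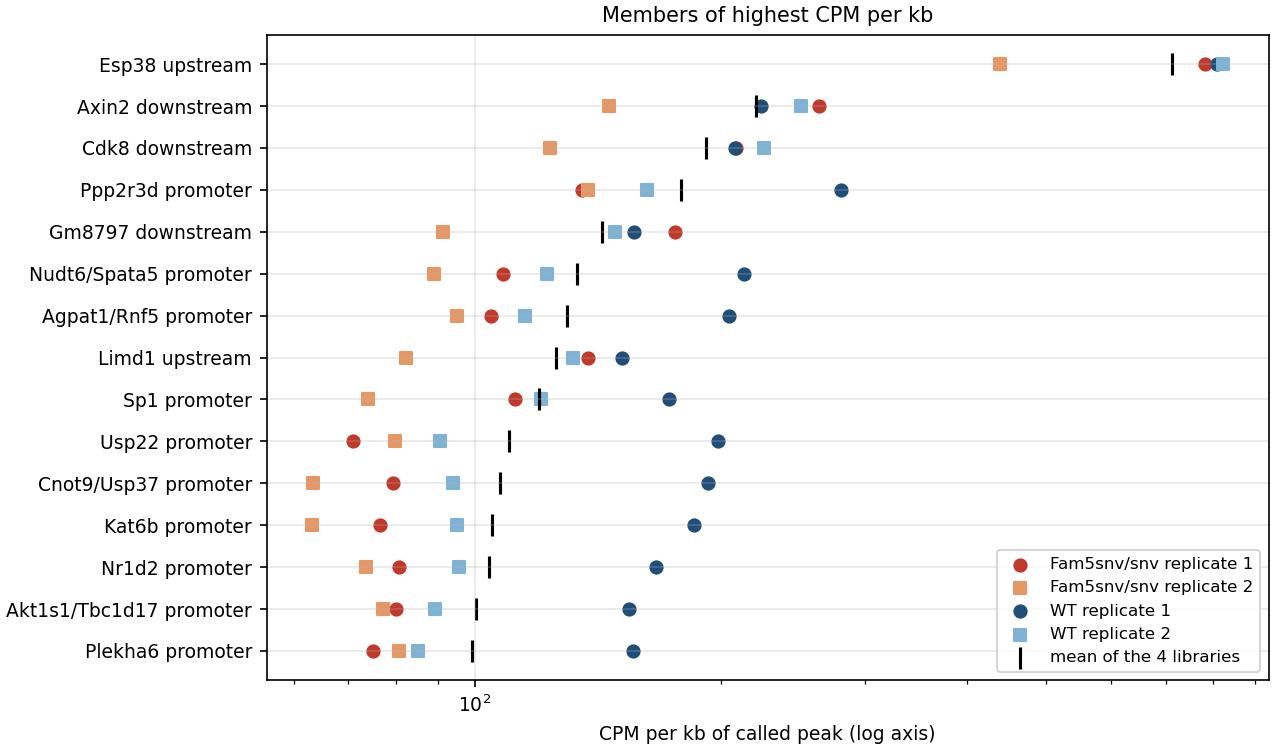
CPM per kb of called peak (log axis) in each library for the 10 strongest shared regions and the 10 strongest shared promoters, which have 5 in common, red and orange for Fam5snv/snv, blue for WT, bars for the mean of the 4 libraries. The ribosomal RNA region, drawn as Esp38 upstream after its nearest protein-coding gene, lies far right, the Lars2 region is drawn as Limd1 upstream, and WT replicate 1 is the rightmost point at each promoter.

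The limit on coverage has close neighbours on both sides. Just inside it were regions at the promoters of Uggt1 and Rbpj and one near Ccdc177, all with a lowest coverage of 50%, and just outside were regions near Cadm1, Kcnj15 and Siah3 with 49.98% to 49.99%. The Uggt1 promoter had 15.9 and 15.6 CPM in Fam5snv/snv and 12.6 and 15.1 CPM in WT, and the Siah3 region had 54.0 and 56.4 CPM in Fam5snv/snv and 42.4 and 32.0 CPM in WT.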

How the data were processed

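Anti-NR2F1 single-cell CUT&Tag was deposited as 1 matrix of counts, 1 list of barcodes and 1 list of peaks for each of 4 libraries (2 Fam5snv/snv, 2 WT). The authors counted cut sites per called peak and barcode with Cell Ranger ATAC on mm10, separately in each library, so cut sites outside a library's own peaks were not counted. The deposited values of other kinds were barcode names and peak positions, with no height or score. The sample labels say only mutant or wild type, and the allele and pool sizes come from the series description.

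Counts were summed over barcodes, keeping every deposited barcode and calling no doublets, and over the peaks of a merged region. The 35770 regions called in all 4 libraries, and holding 10 or more cut sites in 2 or more of them, were tested with edgeR 4.0.16 in R 4.3.3 (quasi-likelihood, TMM, no block), and DESeq2 1.42.0 was an alternative, as were other scalings, limits and leaving out each library. Shared regions held a median of 228 and 234 cut sites in the Fam5snv/snv libraries and 114 and 93 in the WT libraries, and the low WT counts limit the precision. Genes come from GENCODE M21, and a region is a promoter within 1 kb of a protein-coding TSS and otherwise takes its nearest one. Copies were searched with BLAST+ 2.17.0, and the test was checked on simulated data. There, at an adjusted p under 0.05, edgeR recovered 8% of shared regions set to 0.5-fold and 54% of those at 0.25-fold. It recovered 42% at 2-fold and 94% at 4-fold, with 50 regions for each. A lack of calls therefore does not exclude changes of 2-fold in either direction.

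Named regions followed a rule: those passing the adjusted p, the 10 of smallest p in each direction whose libraries did not overlap, the 10 of highest mean CPM per kb of called peak, the regions at cRE1 and cRE2 and the promoters of Gata2, Gata3, Nr2f1, Nr2f2, Isl1 and Hoxb1, the 2 of smallest p and the 2 of highest CPM per kb of each list, and the 3 on either side of the coverage limit. The members and lists were chosen with earlier results of these data known. In the labels, the pools with the same replicate number share only the number. One promoter region that the rule names is not reported here.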

Additional observations from a re-analysis of the deposited data

Results flagged for a closer look

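Regions on the X chromosome were left out of the shared regions by the choice of chromosomes 1 to 19. Of them 189 met the other criteria and held 108678 cut sites over the 4 libraries. These 189 were among the other tested regions, so the scaling, the adjustment and the backgrounds above include them. Their median was 19.5 and 19.7 CPM in Fam5snv/snv and 24.9 and 22.2 CPM in WT, with a median log2 fold change of −0.30, beside −0.31 for the shared regions. At an unadjusted p under 0.05 (edgeR), 0 were higher (background 5.29% of tested regions) and 12 lower (6.35%, background 3.37%).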

How the results depend on the processing

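No shared region was called by edgeR under any scaling, without the minimum of cut sites or with the replicate block (0 higher and 0 lower in each), while DESeq2 called 1 higher and 147 lower. Leaving out each library in turn gave 0 to 150 called higher and 0 to 1740 called lower, with both high values from leaving out a WT library, after which the lone WT library is assumed to vary like the Fam5snv/snv ones. At an unadjusted p under 0.05, the 17 higher and 858 lower became 30 and 1720 with DESeq2, 255 and 109 with TMM factors of the shared regions, 578 and 295 in a fit of the shared regions alone, 0 and 345 with covered length as an offset, 1333 and 0 scaled by barcodes, and 1 and 673 scaled by all cut sites. Over all 35770 tested regions, 1892 were higher and 1206 lower in the main fit, and 2504 and 2470 with DESeq2. The counts over all were 3889 and 137 with factors of the shared regions and 4 and 4545 with the offset. They were 8708 and 0 by barcodes, and 1381 and 1047 by all cut sites. The next counts are again of shared regions, from fits that leave 1 library in a genotype. The spread of such a lone library cannot be estimated, so no background is set beside them and no difference is read from them. Leaving out each library gave 0 to 554 higher and 50 to 3320 lower. With the replicate block, counts at an unadjusted p under 0.05 were 21 higher and 703 lower, against 1671 and 965 over all tested regions. Deviations of samples with the same number correlated at 0.03 over all tested regions and −0.10 over shared regions. This gave no sign of pairing, but with 1 difference per genotype it cannot exclude a shared batch. The causes of these shifts were not tested. With a coverage limit of 30%, 70% or 90%, 20403, 1835 or 56 regions would be shared. Of the 20 named log2 fold changes, Pex5l turned to −0.023 with covered length as an offset, and Slc38a1 (0.0062), Pou2f2 (0.0097), Commd3 (0.069) and Tbx3 (0.066) turned positive when scaled by barcodes. The median shared region stood at −0.68 with that offset and at 0.69 when scaled by barcodes. The 10 strongest regions moved by less than their spread under each alternative tried. Leaving out 1 library cannot move a mean of 4 by more than that spread, so those settings show nothing about stability. Ranked per kb of the merged region, 9 of the 10 stayed among the 10 strongest.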
